A study of Mus musculus with 2 samples.

Results

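B cells were examined in CD45-sorted immune cells from tumours that MFC cells, a forestomach carcinoma line of the mouse, formed under the skin of wild-type BALB/c mice. 1 library came from tumours of mice given PBS (control) and 1 from mice given thonzonium bromide at 50 mg/kg from day 6, every other day, with tumours taken on day 10. Thonzonium bromide is a cationic surfactant that uncouples the vacuolar proton pump. Both samples carry the same treatment text, so the groups rest on the treatment label of each sample, and the number of mice behind each library is not given in the sources used here. Members were selected on their marker counts: they were barcodes with at least 200 genes and at most 20% mitochondrial UMIs (unique molecular identifiers, which count captured RNA molecules) that had 2 or more UMIs of Cd79a and at least 1 of Ms4a1 or Cd79b. They also had no UMI of Cd3e, Cd3d or Siglech and at most 2 of the C1q genes. This gave 195 members of 6419 kept control cells and 489 of 5833 kept treated cells, 684 of 12252 in all. With 1 library per group there is no replicate, so no difference between the groups was tested, and the intervals, at the 95% level, cover counting error only. They are exact for levels, their ratios and shares of cells, while the ratio of the B cell shares has one on the log scale, and limits for a count of 0 allow 3 counts.

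B cells recognise antigen through a membrane immunoglobulin made of paired heavy and light chains, which signals through the Cd79a and Cd79b chains. A naive B cell displays the IgM and IgD isotypes side by side, circulates between blood and lymphoid follicles, and presents captured antigen to T cells on MHC class II molecules. On activation it induces early genes such as Cd69 and Myc, and it may then switch isotype or become an antibody-secreting plasma cell.

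The genes outside the gate matched the label. An Ebf1 UMI, of a transcription factor gene that specifies the B lineage, was found in 193 of 195 control members (99.0%, 96.3 to 99.9) and 482 of 489 treated members (98.6%, 97.1 to 99.4), against 0.718% and 0.877% of Cd3-positive barcodes (2 or more UMIs of Cd3e or Cd3d, none of Cd79a, and the same limits on C1q and Siglech). Fcmr, the gene of the IgM Fc receptor, was found in 148 control members (75.9%, 69.3 to 81.7) and 431 treated members (88.1%, 84.9 to 90.9), and in 0.144% and 0.319% of the Cd3-positive barcodes. Median depths of control and treated members were 3868 and 3739 UMIs, against 5601.5 and 7129.5 in the Cd3-positive barcodes. At the edge of the gate, 7 control and 13 treated members had exactly 2 Cd79a UMIs, with a median depth of 2358 and 2932 UMIs. Just outside it, 10 and 11 barcodes met every other criterion with 1 Cd79a UMI, at a median depth of 1586.5 and 3147 UMIs.

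Some members were not B cells alone. The deepest control barcode held 118672 UMIs, 12.5% of all member UMIs of its library, with 183 UMIs of Shisal2b, 99 of Cald1 and 59 of Rhox5 but 2 of Cd79a. It was the only control member with a Shisal2b UMI. 2 control and 6 treated members had more than 20000 UMIs (15.1% and 6.47% of member UMIs), and 2 of the 6 deepest control members and 5 of the 6 deepest treated members had 10 or more UMIs of Nkg7 or Lyz2, genes of cytotoxic and of myeloid cells. 10 or more UMIs of Lyz2, Nkg7 or Gzmc were found in 4 control and 27 treated members. Haemoglobin made up over 5% of UMIs in 1 control and 3 treated members. No doublet caller was used and no member was removed. Values come from UMIs summed over all members. The value without members over 20000 UMIs (the deep barcodes), a setting chosen after the data had been seen, is added for ratios that it moves across 1.5-fold or across 1, and for list medians. The libraries shared 14 deposited barcode sequences, and none of them was a member in both.

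**Figure D1:**
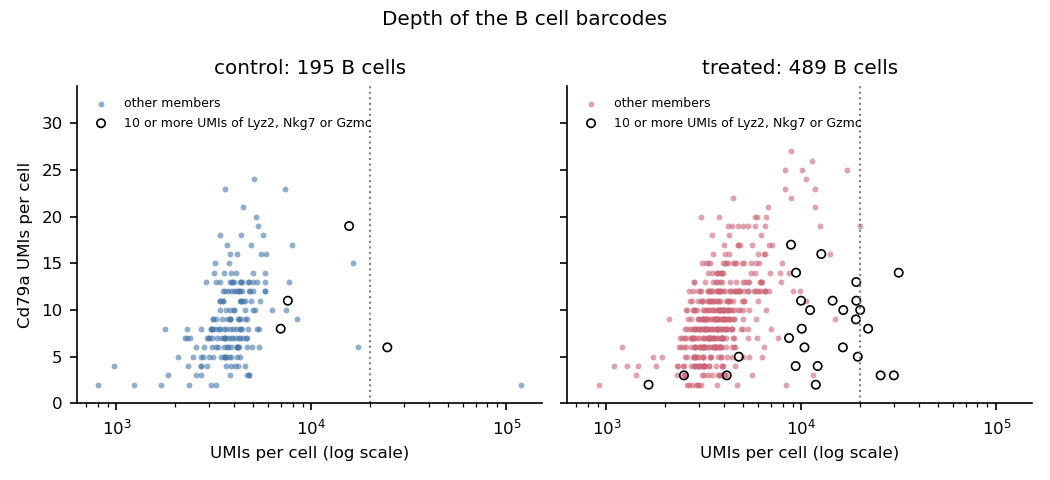
UMIs per B cell (x axis, log scale) against Cd79a UMIs per cell (y axis) in the control (left, 195 cells) and treated library (right, 489 cells), 1 point per cell. Open circles have 10 or more UMIs of Lyz2, Nkg7 or Gzmc (4 and 27 cells), the dotted line marks 20000 UMIs, and the control point at 118672 UMIs has 2 Cd79a UMIs.

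B cells made up 3.04% of kept control cells (2.63 to 3.49) and 8.38% of kept treated cells (7.68 to 9.12). The treated share was 2.76 times the control share (2.35 to 3.25). A share depends on how many cells of every other type were sorted and captured, so more B cells and fewer other cells cannot be told apart here.

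The immunoglobulin genes described mostly unswitched cells in both libraries. Ighm and Ighd UMIs, of the IgM and IgD constant regions, were found together in 86.7% of control members (81.1 to 91.1) and 94.5% of treated members (92.1 to 96.3). Cells with Ighm but no Ighd made up 12.8% (8.47 to 18.3) and 4.50% (2.84 to 6.73). The summed level of Ighd in CPM (UMIs of the gene per 1000000 UMIs of the members) was 731 in control and 1130 in treated members, a treated over control ratio of 1.55 (1.42 to 1.68), and 1.40 without members over 20000 UMIs. Ighm was nearly level, at 3108 and 3220 CPM, a ratio of 1.04 (0.993 to 1.08) that was 0.937 without the deep barcodes. After each cell was thinned to 1000 UMIs, Ighd was found in 58.0% (50.7 to 65.1) and 66.4% (62.0 to 70.6) of members, so those intervals overlap. The thinned share in Cd3-positive barcodes was 0.292% and 0.239% for Ighd but 12.7% and 10.1% for Ighm, so an Ighm UMI by itself does not mark a B cell here.

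Light chain genes came mainly from the kappa locus. Igkc UMIs exceeded the lambda constant UMIs in 175 of 195 control members (89.7%, 84.6 to 93.6) and 449 of 489 treated members (91.8%, 89.0 to 94.1). Lambda exceeded kappa in 9.74% (5.97 to 14.8) and 7.36% (5.21 to 10.05). Summed Igkc levels were 7310 CPM (control) and 7290 CPM (treated), at a ratio of 0.997 (0.970 to 1.03). Of members with 10 or more Igkc UMIs, 97.1% and 97.4% also held a UMI of Iglc2 or Iglc3, which are near-identical copies, so their split is uncertain. Members without any Igkc UMI (10 and 18 cells) had a median of 23.5 and 37.5 lambda UMIs, against 8 and 8 in members with 10 or more Igkc UMIs. The number of lambda UMIs thus differed between these cells where the mere presence of one did not.

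Variable segments, which encode the antigen-binding part of each chain, were caught in a minority of cells. A heavy chain segment (Ighv) was found in 35 control members and 109 treated members, spread over 27 and 60 segments. The most frequent were Ighv1-9 in 4 control members and Ighv1-82 in 6 treated members. Kappa segments were found in 34 and 112 members over 27 and 48 segments, led by Igkv1-110 and Igkv17-121 in 4 control members each and by Igkv1-135 in 9 treated members. Of the 15 control and 40 treated members with a lambda segment, 10 and 33 held Iglv3 and 9 and 8 held Iglv1. No heavy or kappa segment was found in more than 11.8% of the members that held a segment of its kind in either library.

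Switched and secreting cells were few. 2 or more UMIs of a switched isotype were found in 1 control member (0.513%, 0.0130 to 2.82) and 7 treated members (1.43%, 0.577 to 2.93). The control member held 2 Igha, 17 Ighm, 0 Igkc and 26 Nkg7 UMIs. Of the 7 treated members, 1 held 191 Lyz2 UMIs and 1 held 25 Nkg7 UMIs. Switched-isotype UMIs exceeded Ighm UMIs in 0 of 195 control members (0 to 1.87%) and 3 of 489 treated members (0.614%, 0.127 to 1.78). Jchain, the gene of the joining chain of secreted IgM and IgA, had no UMI in the control members, which allows up to 1.54% of cells with a UMI. It was found in 2 treated members with 61 and 62 UMIs. The first also held 748 Ighm, 934 Igkc and 298 Slpi UMIs, and the second 576 Ighg3 and 771 Igkc UMIs. These were 298 of the 361 Slpi UMIs and 576 of the 638 Ighg3 UMIs of all treated members, so most of the treated sum of each gene came from 1 cell.

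Markers of B cell stages and subsets differed in how many were found. All 7 genes of the follicular list were tested, which here means a mean level of at least 50 CPM over the libraries. They included Fcer2a, the low-affinity IgE receptor gene of follicular cells, at 219 and 250 CPM (1.14, 0.972 to 1.34), which did not differ by 1.5-fold. Of genes also used in precursors, Vpreb3 stood at 219 and 173 CPM (ratio 0.792, 0.668 to 0.941) with a UMI in 45.1% and 41.1% of members, and Cd24a at 121 and 131 CPM with a UMI in 37.4% of members of each library. In contrast, Rag1, Rag2, Dntt and Igll1, which work in receptor assembly, had no UMI in either library, which allows up to 1.54% of control and 0.614% of treated cells with a UMI. No germinal centre gene reached 50 CPM. Mki67, a proliferation gene, was found in 9 of 195 control members (4.62%, 2.13 to 8.58) and 9 of 489 treated members (1.84%, 0.845 to 3.46), under its share in Cd3-positive barcodes (20.5% and 16.8%). Of the marginal zone and B1 list 4 of 12 genes were tested, all with a ratio above 1, against 1053 of all 2774 genes. With each cell scaled alike, 2 of the 4 were above 1, against 1038 of all 2728 genes. Among its members, Plac8 stood at 807 and 955 CPM, but at 1272 and 1282 CPM in Cd3-positive barcodes. Mzb1 stood at 297 and 332 CPM and the complement receptor gene Cr2 at 86.4 and 140 CPM, while S1pr3 was at 0 in both. Of genes used for age-associated B cells, Zeb2 stood at 137 and 117 CPM, and Tbx21 was found in 3 and 14 members (1.54% and 2.86%, against 26.9% and 30.9% of Cd3-positive barcodes).

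Across all genes at 50 CPM or more, more were lower than higher in treated B cells. Of 2774 genes tested, 79 (2.85%) were at least 1.5-fold higher and 314 (11.3%) at least 1.5-fold lower in the treated library. The median log2 ratio was -0.11. Without members over 20000 UMIs, 51 of 2699 genes (1.89%) were higher and 233 (8.63%) lower, and 47 of the 79 and 161 of the 314 were still past 1.5-fold in the same direction. With every cell scaled alike, 58 of 2728 (2.13%) were higher and 259 (9.49%) lower. Divided by the median ratio, 123 were higher and 191 lower, so the higher genes made up 39.2% of those past 1.5-fold in place of 20.1%. In 9 of the 12 genes with the lowest summed ratio (Shisal2b, Cald1, Ctsl, Snhg1, Hspd1, Eif4ebp1, Nars, Lars and Rars), 1 barcode held at least 50% of the control UMIs. The other 3 of the 12 were the heat shock genes Hsph1, Dnajb1 and Hspa1a. The 12 genes with the highest ratio were Slpi, Xcl1, Thbs1, Gzma, Cxcl10, Gbp2, Gzmd, Pld4, Fcer1g, Il1b, Cd22 and Zkscan3, and in 8 of them 1 barcode held 10% or more of the treated UMIs. A further setting left out members with a UMI of another lineage (Lyz2, Csf1r, Nkg7, Trac or Cd3g). Xcl1, Gzma, Cxcl10 and Gzmd then had ratios of 0.224, 0.112, 0.362 and 0.163. Slpi and Thbs1 had no ratio there, and the other genes named stayed above 1.

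**Figure D2:**
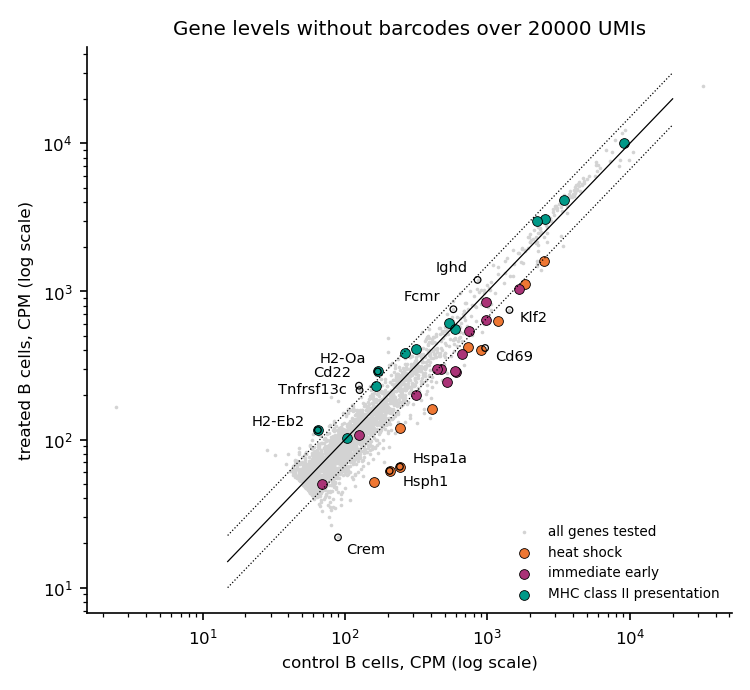
Level of each gene in control (x axis) and treated B cells (y axis) in CPM on log scales, without members over 20000 UMIs; the solid line is equality and the dotted lines are 1.5-fold. Heat shock genes lie below equality (10 of 10) and MHC class II genes mostly above it (11 of 12), with Crem and Cd22 among those farthest out. Of all 2699 genes tested in this setting, 1674 were lower and 1025 higher.

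Heat shock genes, which encode chaperones that refold damaged proteins, formed the list with the lowest median. Of 10 tested, 9 were at least 1.5-fold lower in the treated library, against 11.3% of all genes, and the other, Hspa8, was at a ratio of 0.687. The median log2 ratio was -1.07, and -1.10 without members over 20000 UMIs, when all 10 were past 1.5-fold lower, against 8.63% of all genes. Hspa1a, a stress-inducible Hsp70 gene, stood at 207 CPM in control and 74.8 CPM in treated B cells (ratio 0.362, 0.293 to 0.447). It was 0.270 without the deep barcodes. Hsph1, an Hsp110 gene, stood at 195 and 64.4 CPM (ratio 0.330, 0.264 to 0.412). Dnajb1, an Hsp40 gene, stood at 143 and 50.0 CPM (0.349, 0.270 to 0.451). The mitochondrial chaperonin gene Hspd1 stood at 464 and 142 CPM (0.306), but 235 of its 440 control UMIs lay in 1 barcode, and its ratio was 0.491 without the deep barcodes. The abundant Hsp90ab1 stood at 2612 and 1691 CPM, a ratio of 0.647. In the Cd3-positive barcodes the list's median was -0.41 and Hspa1a stood at 233 and 123 CPM, so both were lower there as well. The difference between the cell types was not tested.

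Immediate early genes, which encode factors induced within minutes of a signal, all had a ratio below 1, against 1721 of all 2774 genes. The 13 tested had a median log2 ratio of -0.47, and 4 were past 1.5-fold, against 11.3% of all genes (8 of 13 without the deep barcodes, against 8.63%, median -0.64). Fos stood at 523 CPM in control and 280 CPM in treated B cells (ratio 0.537, 0.477 to 0.604). Klf6 stood at 473 and 244 CPM (0.516, 0.455 to 0.585). The most abundant, Jund, stood at 1469 and 1020 CPM (0.694, or 0.625 without the deep barcodes). Jun was nearly level at 867 and 831 CPM (0.958, 0.883 to 1.04). So was Dusp1, at 107.5 and 107.0 CPM (0.995, 0.787 to 1.27). In Cd3-positive barcodes the median was -0.27, and there Jun had a ratio of 0.602. Over all other kept cells the median was 0.52, but those cells are a mixture whose make-up differs between the libraries.

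Activation genes were lower as well. Cd69, the gene of an early activation antigen that holds lymphocytes in tissue, stood at 825 and 400 CPM (ratio 0.485, 0.441 to 0.535). The share of members with a Cd69 UMI was 83.6% and 60.7%, and after thinning 53.9% (46.6 to 61.1) and 31.1% (27.1 to 35.5). In Cd3-positive barcodes, which express the gene too, the ratio was 0.822 and the thinned shares were 31.1% and 27.8%. Myc, the growth factor-induced regulator of cell growth, stood at 91.7 and 37.8 CPM (0.413, 0.303 to 0.562). Rel, the NF-kB subunit c-Rel, stood at 303 and 157 CPM (0.517, 0.442 to 0.606), and Nr4a1, a gene induced by receptor signalling, at 100.1 and 50.4 CPM (0.504). The costimulatory ligand gene Cd86 differed less, at 104 and 79.6 CPM (0.763, 0.594 to 0.984). Of the 10 list members tested, 5 were past 1.5-fold lower, against 11.3% of all genes, and 1 was higher, the chemokine gene Ccl4 (53.7 and 85.7 CPM), against 2.85%. The level of Ccl4 outside the B cells was 562 and 1088 CPM, and without the deep barcodes its ratio was 0.833. The median of the list was -0.59, and -0.73 without the deep barcodes.

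Genes downstream of NF-kB and of the antigen receptor were split. Malt1, the gene of a protease that links the receptor to NF-kB, stood at 382 and 244 CPM (0.639, 0.559 to 0.731). Syk, the kinase that first docks on the Cd79 chains, stood at 399 and 285 CPM (0.713, 0.627 to 0.811, and 0.632 without the deep barcodes). The scaffold gene Bank1 stood at 463 and 547 CPM (1.18, 1.06 to 1.32). The signalling list of 13 tested genes had a median of 0.02, close to the -0.11 of all genes. Without the deep barcodes the list's median was -0.06, against -0.10 for all genes. Then 2 of 13 were past 1.5-fold lower, against 8.63% of all genes. Birc3, an NF-kB target that restrains cell death, stood at 148 and 87.0 CPM (0.590, 0.473 to 0.737), Mcl1 at 521 and 388 CPM (0.746), and Bcl2 at 125 and 184 CPM (1.47, 1.20 to 1.82). Cd274, which encodes the checkpoint ligand PD-L1, stood at 84.3 and 38.7 CPM (0.459, 0.336 to 0.629). The lymphotoxin gene Ltb stood at 685 and 887 CPM (1.30, 1.19 to 1.42).

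Homing genes also moved in different directions. Klf2, a factor that keeps lymphocytes in circulation, stood at 1217 and 710 CPM (0.584, 0.541 to 0.630). Cxcr4, the receptor for the stromal chemokine CXCL12, stood at 347 and 182 CPM (0.526, 0.454 to 0.609). Gpr183, the oxysterol receptor that places B cells at the follicle edge, stood at 195 and 106 CPM (0.544, 0.448 to 0.662), and Ccr7, the receptor for T zone chemokines, at 249 and 140 CPM (0.561, 0.473 to 0.667). These 4 were the members past 1.5-fold lower of 12 tested, against 11.3% of all genes. In Cd3-positive barcodes the ratios of Klf2 and Cxcr4 were 0.682 and 0.773, and those of Gpr183 and Ccr7 were 1.08 and 1.01. The integrin gene Itgb7 was the 1 member past 1.5-fold higher (2.85% of all genes were), at 53.7 and 88.7 CPM (1.65, 1.21 to 2.29). Cxcr5, the follicle-homing receptor, differed little at 87.5 and 78.3 CPM (0.895, 0.686 to 1.18). The median of the list was -0.15, and -0.29 without the deep barcodes.

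**Figure D3:**
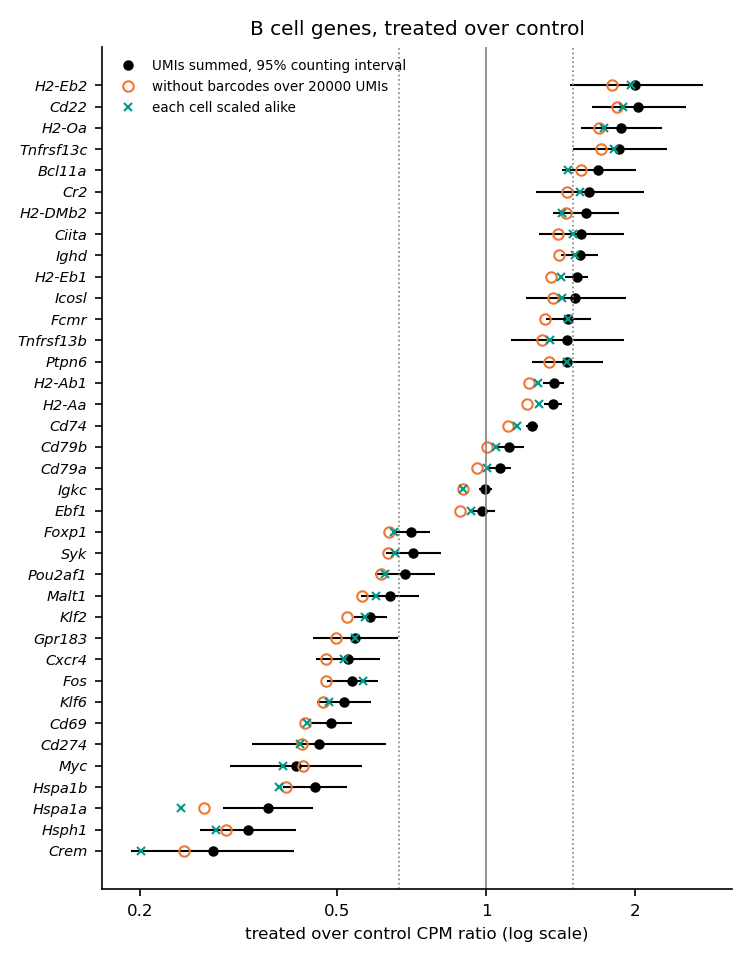
Treated over control CPM ratio (x axis, log scale) of 37 genes in B cells. Black points are UMIs summed over all members with their counting interval, open circles leave out members over 20000 UMIs and crosses scale every cell alike; dotted lines mark 1.5-fold, with H2-Eb2 and Cd22 farthest to the right (2.00 and 2.03) and Crem, whose mean summed level is under 50 CPM, farthest to the left (0.281).

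MHC class II genes were higher in treated B cells. All 12 tested members of the presentation list had a ratio above 1, against 1053 of all 2774 genes, and 5 were past 1.5-fold, against 2.85%. The median log2 ratio was 0.50. Without the deep barcodes 11 of 12 were above 1, against 1025 of all 2699 genes. Then 2 were past 1.5-fold (H2-Eb2 and H2-Oa), against 1.89%, and the median was 0.33. The paired chain genes H2-Aa and H2-Ab1 stood at 2931 and 3998 CPM (1.36, 1.31 to 1.42) and at 2167 and 2971 CPM (1.37, 1.30 to 1.44). The invariant chain gene Cd74, which guards the peptide groove during transport, was the most abundant at 7782 and 9642 CPM (1.24, 1.21 to 1.27). The largest ratios belonged to less abundant members. H2-Eb2 stood at 54.8 and 110 CPM (2.00, 1.48 to 2.75), and H2-Oa, a chain of the DO complex that restrains peptide exchange in B cells, at 146 and 275 CPM (1.88, 1.56 to 2.27). H2-DMb2, a chain of the peptide exchange factor DM, stood at 228 and 362 CPM (1.59, 1.37 to 1.86). Ciita, the master coactivator of the class II genes, stood at 140 and 218 CPM (1.55, 1.28 to 1.90). H2-Eb1 stood at 1900 and 2895 CPM (1.52, 1.45 to 1.61). Without the deep barcodes these last 3 ratios fell under 1.5-fold, at 1.45 for H2-DMb2, 1.40 for Ciita and 1.36 for H2-Eb1. The protease gene Ctss stood at 506 and 544 CPM (1.08, 0.968 to 1.20), or a ratio of 0.947 without the deep barcodes.

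Class II RNA was also higher outside the B cells. Cd3-positive barcodes had 80.5 and 162 CPM of H2-Aa and 172 and 391 CPM of Cd74, ratios of 2.01 and 2.27, and the list's median was 1.02 there and 0.78 over all other kept cells. The level in the B cells was far above that of the Cd3-positive barcodes in each library, as the 2931 and 3998 CPM of H2-Aa show. H2-Oa had 9.85 and 8.86 CPM in the Cd3-positive barcodes, a ratio of 0.899, and its thinned share of B cells was 12.4% (8.13 to 17.9) and 26.4% (22.6 to 30.6), against 0.585% and 0.638% of Cd3-positive barcodes. Any part of free RNA in the higher class II levels was not tested.

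In 4 class II genes the letters of a known promoter element were found, and they are shown because the class II genes were higher together. The Y box, a CCAAT-type element bound by the factor NF-Y, was searched as CTGATTGG on both strands (reverse complement CCAATCAG) in the 250 bases before each gene's start. Promoter sequences were those of RefSeq on build GRCm38.p6, and 9 of the 12 list members matched an entry. The Y box was found in 4 of these 9, against 1198 of all 27025 genes with a promoter entry (4.433%). The capitals mark the match within each stretch, written 5′ to 3′ on the strand of the gene. The stretches lie on chromosome 17 at chr17:34092283-34092346 on the plus strand for H2-Oa, chr17:34287861-34287924 on the minus strand for H2-Aa, chr17:34305755-34305818 on the plus strand for H2-Eb1 and chr17:34325522-34325585 on the plus strand for H2-Eb2.
H2-Oa: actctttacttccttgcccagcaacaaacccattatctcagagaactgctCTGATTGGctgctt
H2-Aa: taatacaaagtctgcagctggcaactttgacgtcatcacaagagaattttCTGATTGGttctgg
H2-Eb1: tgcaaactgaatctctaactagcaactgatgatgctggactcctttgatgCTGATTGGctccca
H2-Eb2: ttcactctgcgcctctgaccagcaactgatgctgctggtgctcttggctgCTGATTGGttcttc
The match began 46 bases before the RefSeq start in H2-Oa, 51 in H2-Aa, 62 in H2-Eb1 and 103 in H2-Eb2. In the GENCODE vM21 annotation of the same build, H2-Oa spans 34092340 to 34095234, so the end of its Y box reaches the first base annotated there. H2-Aa spans 34282744 to 34287823, H2-Eb1 34305867 to 34316674 and H2-Eb2 34325665 to 34341412. The 4 genes did not share 1 ratio: H2-Eb2 and H2-Oa stood at 2.00 and 1.88, and H2-Eb1 and H2-Aa at 1.52 and 1.36. A match of letters is a description and not a measured binding site.

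Inhibitory receptors, receptors for BAFF and CD40 ligand, and other surface genes were compared next. Cd22, a sialic acid-binding receptor that dampens antigen receptor signals (chromosome 7, 30865402 to 30880342), stood at 107 and 218 CPM, with a ratio of 2.03 (1.64 to 2.54) that was 1.84 without the deep barcodes. Its UMI was found in 40.0% and 59.1% of members and, after thinning, in 13.0% (8.56 to 18.5) and 19.3% (15.9 to 23), so the thinned intervals overlap. Ptpn6, the phosphatase gene that Cd22 recruits, stood at 199 and 290 CPM (1.46, 1.24 to 1.72). Of 8 tested genes of the inhibitory receptor list, which includes Ptpn6, 7 had a ratio above 1, against 1053 of all 2774 genes. Cd22 was the 1 past 1.5-fold, against 2.85%. Without the deep barcodes 6 of 8 were above 1, against 1025 of all 2699 genes. Without members with a UMI of another lineage, 4 of 8 were above 1, while the median log2 ratio of all genes was -0.15. Tnfrsf13c, the receptor gene for the survival factor BAFF (chromosome 15, 82221743 to 82224369), stood at 110 and 204 CPM (1.86, 1.5 to 2.32). Tnfrsf13b, a second receptor gene for BAFF, stood at 80.1 and 117 CPM (1.46, 1.12 to 1.90). The other 3 tested genes of the BAFF and CD40 receptor list were below 1. They were the adaptor gene Traf1 at 103 and 61.7 CPM (0.598), Nfkb2 at 98.0 and 81.3 CPM (0.830) and Cd40 at 56.9 and 54.4 CPM (0.955). The median over the 5 was -0.07, close to that of all genes, and -0.20 without the deep barcodes, against -0.10 for all genes. Cr2, a complement receptor gene, had a ratio of 1.62 (1.26 to 2.08), or 1.46 without the deep barcodes. Fcmr stood at 491 and 720 CPM (1.47, 1.32 to 1.63), with thinned shares of 34.7% (28.0 to 41.9) and 51.0% (46.5 to 55.5). Icosl, a costimulatory ligand gene for T cells, stood at 100.1 and 152 CPM (1.52, 1.21 to 1.92), a ratio of 1.37 without the deep barcodes.

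The genes that chose the members were level between libraries. Cd79a stood at 1883 and 2005 CPM (1.06, 1.01 to 1.13), Cd79b at 1134 and 1260 CPM (1.11, 1.04 to 1.19) and Ms4a1 at 774 and 860 CPM (1.11, 1.02 to 1.21). Without the deep barcodes these ratios were 0.959, 1.01 and 0.995. They are given as a description, since the gate used them.

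Of 15 B lineage transcription factor genes tested, 10 had a ratio above 1, against 1053 of all 2774 genes. 1 was past 1.5-fold higher (Bcl11a, against 2.85% of all genes) and none past 1.5-fold lower (against 11.3%). Pax5, which holds B cell identity, and Ebf1 were level at 329 and 324 CPM (0.985, 0.862 to 1.13) and 1511 and 1482 CPM (0.981, 0.922 to 1.04). Bcl11a stood at 177 and 299 CPM (1.69, 1.42 to 2.01) and Pou2f2, which encodes Oct-2, at 333 and 430 CPM (1.29, 1.14 to 1.47). Pou2af1, the gene of the Oct coactivator OBF-1, stood at 347 and 238 CPM (0.686, 0.597 to 0.789), and Foxp1 at 817 and 576 CPM (0.706, 0.645 to 0.772). Without the deep barcodes 6 were above 1, against 1025 of all 2699 genes. Pou2af1 (0.613) and Foxp1 (0.637) were then past 1.5-fold lower, against 8.63% of all genes. The median of the 15 tested factors was 0.12, and -0.02 without the deep barcodes.

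Most type I interferon-stimulated genes had a ratio below 1 in the B cells, as had most genes. Of 18 tested, 16 were lower, against 1721 of all 2774 genes, with a median of -0.30 against -0.11 (-0.47 without the deep barcodes, when all 18 were lower). 1 of them, Bst2, was past 1.5-fold lower, against 11.3% of all genes. That number depended on the setting. It was 1 of 18 without the deep barcodes, against 8.63%, but 7 of 18 with each cell scaled alike, against 9.49%. Without members with a UMI of another lineage it was 11 of 18, against 343 of all 2668 genes. All 18 were lower in each of these 3 settings. Ifi27l2a, the most abundant, stood at 1902 and 1509 CPM (0.794, 0.749 to 0.840). Bst2, the virus-tethering protein gene tetherin, stood at 414 and 246 CPM (0.594, 0.522 to 0.678). Over all other kept cells the median was 0.35, and in Cd3-positive barcodes -0.17. Interferon-gamma-stimulated genes had a median of 0.21, or 0.05 without the deep barcodes. Their highest ratios rested on few cells: Cxcl10, a chemokine gene, stood at 68.5 and 195 CPM with 96 of 449 treated UMIs in 1 barcode, and Gbp2, a guanylate-binding protein gene, at 27.4 and 77.4 CPM with 32 of 178. Their ratios were 2.85 and 2.83, and 1.82 and 1.61 when every cell was scaled alike. Cxcl10 had a UMI in 19.0% of control but 12.5% of treated members, and its ratio was 0.362 without members with a UMI of another lineage.

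Other lists are given by their counts and medians. Of the 12 MHC class I genes tested, 11 were above 1, against 1053 of all 2774 genes. None reached 1.5-fold, and 2.85% of all genes were past it higher. The median was 0.17, or 0.15 without the deep barcodes, when 8 of 12 were above 1, against 1025 of all 2699 genes. Without members with a UMI of another lineage, 7 of 12 were above 1, while the median log2 ratio of all genes was -0.15. The immunoproteasome gene Psmb9 was highest at 190 and 281 CPM (1.48, 1.25 to 1.76). The 16 proton pump and lysosome genes tested had a median of 0.16, or 0.14 without the deep barcodes (0.72 over all other kept cells). The median was 0.018 without members with a UMI of another lineage. The saposin gene Psap stood at 244 and 345 CPM (1.41, 1.22 to 1.64). Lamp2, a lysosome membrane gene, stood at 106 and 76.1 CPM (0.715, 0.557 to 0.923, and 0.626 without the deep barcodes). The 1 member past 1.5-fold, against 2.85% of all genes higher, was the cathepsin gene Ctsb at 60.1 and 107 CPM. Its ratio was 1.01 without members with a UMI of another lineage, and its level outside the B cells was 387 and 789 CPM. Of 10 glycolysis and hypoxia genes tested, 4 were past 1.5-fold lower, against 11.3% of all genes, with a median of -0.45. Without the deep barcodes 0 of 9 were past 1.5-fold, against 1.89% of all genes higher and 8.63% lower, and the median was -0.06. The Gapdh, Ldha and Pgam1 sums of the control held 255 of 625, 144 of 325 and 95 of 174 UMIs from 1 barcode. Of 5 Toll-like receptor genes and partners tested, none was past 1.5-fold, and Tlr9 was found with 2 and 8 UMIs.

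Markers of other cell types moved with the groups in these barcodes. The summed NK and cytotoxic list was 1671 and 2751 CPM in the control and treated sums, and the per-cell median was 643 and 0 CPM, so the treated sum lay in few barcodes. Gzma stood at 181 and 530 CPM, with 206 of 1218 treated UMIs in 1 barcode. The monocyte and macrophage list stood at 611 and 980 CPM, with per-cell medians of 243 and 296 CPM. The erythroid list had per-cell medians of 789 and 105 CPM, and the T cell list 0 in both. Neutrophil markers summed to 14.8 CPM in control and 77.0 CPM in treated members, and dendritic cell markers to 43.2 and 34.8 CPM. Ly6g, Camp and Ngp and the dendritic gene Xcr1 were at 0 in both libraries. The part of these cells and of free RNA in the gene levels above was not tested. Without the 71 control and 124 treated members with any UMI of Lyz2, Csf1r, Nkg7, Trac or Cd3g, the medians of heat shock, immediate early and MHC class II genes were -1.18, -0.59 and 0.35.

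Per-cell sums showed how widely the differences were shared. The heat shock genes summed to a median of 8060 CPM per control member (quartiles 4951 and 10968) and 4276 CPM per treated member (3115 and 5793). 48 of 489 treated members (9.82%) lay above the control median. For immediate early genes the medians were 7223 and 4832 CPM, with 27.6% of treated members above the control median, and for activation genes 2475 and 1486 CPM, with 21.9%. For homing genes they were 3903 and 2644 CPM (21.7%), and for type I interferon-stimulated genes 4173 and 2476 CPM (34.2%). MHC class II genes went the other way, at 20934 and 25254 CPM, with 74.4% of treated members above the control median. The ranges of the libraries overlapped for each of these lists.

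**Figure D4:**
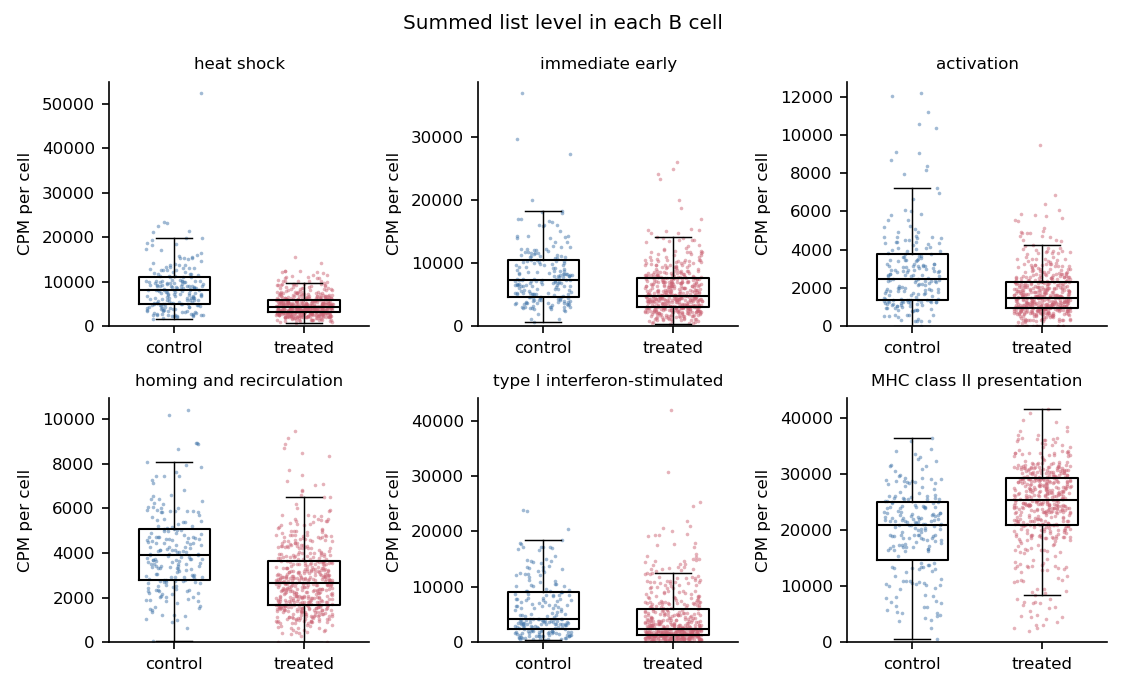
Summed level of 6 gene lists in each B cell (y axis, CPM of that cell) in the control (195 cells) and treated library (489 cells), 1 point per cell; boxes show quartiles and the median, and whiskers reach the last cell within 1.5 times the box height. Treated medians are lower for heat shock (4276 against 8060 CPM) and the next 4 lists and higher for MHC class II (25254 against 20934 CPM).

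Shares of cells with a UMI were also compared at equal depth. Thinning to 1000 UMIs left 193 control and 488 treated members. Rel was found in 28.5% (22.2 to 35.4) and 17.2% (14.0 to 20.9), Cxcr4 in 33.2% (26.6 to 40.3) and 16.8% (13.6 to 20.4), and Ccr7 in 22.8% (17.1 to 29.4) and 12.3% (9.52 to 15.5). Cd83, an activation antigen gene, was found in 17.6% (12.5 to 23.7) and 9.84% (7.34 to 12.8). Intervals overlapped for Cd83, Hspa1a (11.9% and 6.15%), Tnfrsf13c (14.5% and 20.7%) and Cr2 (7.77% and 13.5%). Fcer2a was level at 21.8% and 22.5%.

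**Figure D5:**
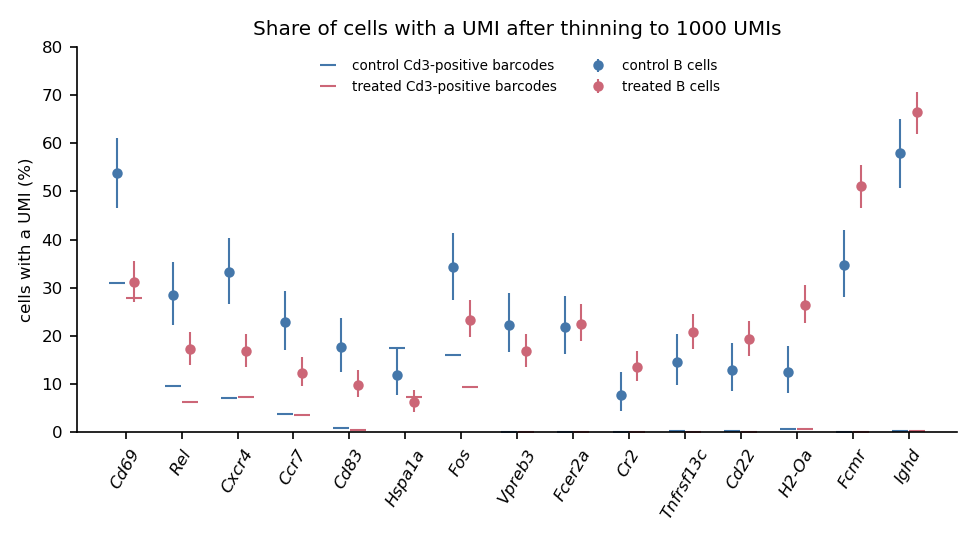
Share of B cells with a UMI of each gene after thinning to 1000 UMIs per cell (y axis, %), with exact 95% counting intervals, for 193 control and 488 treated B cells; dashes show the share in Cd3-positive barcodes. Cd69, Rel, Cxcr4 and Ccr7 are lower in the treated library and Fcmr and H2-Oa higher, without overlap of the intervals.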

How the data were processed

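The authors deposited whole-number UMI counts, a matrix of 32285 genes by barcodes for each library. Cell Ranger 6.1.2 wrote them, per the file headers. Genome mm10, Seurat 3.0 and R 3.5.3 are named in the submitters' processing notes, with no step given. The deposited tables carry no cell types. Members were found by the gate above. The members and the 35 gene lists (433 genes sought) were chosen with earlier results of these data known. UMIs were summed over members and divided by their total of 949073 control and 2299896 treated UMIs to give CPM; genes at a mean of 50 CPM were compared, and 1.5-fold is a threshold of size. Ratios have exact conditional binomial intervals and shares of cells exact Clopper-Pearson intervals; the ratio of the B cell shares has an interval on the log scale. A count of 0 is taken to allow 3 counts. Cells of 1 library come from 1 sample, so intervals do not cover the spread between animals.

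Named genes were the 12 highest and 12 lowest past 1.5-fold (also without members over 20000 UMIs, added after the data had been seen), up to 5 per list, all genes of the gate, receptor and class II lists, and the 3 variable segments found in most members. Mitochondrial, ribosomal, haemoglobin, receptor, sex-linked and unnamed genes were left out of the first. The text gives a part of these, and others (among them Rel, Ccr7, Nr4a1, Cd86, Dnajb1 outside its list's extremes, Pax5, Cd83 and the genes without a list) were chosen after their values were seen. A few list members are counted in their lists but not reported here. Alternatives changed the gate, left out deep or mixed members, scaled each cell alike, thinned cells or changed the minimum level. Of 32285 gene IDs, 32158 were found in GENCODE vM21. Ratios and intervals were tested on simulated independent counts per gene, the model that the intervals assume. The simulation held no cells, so it does not cover UMIs gathered in single barcodes. Python 3.11.15 was used with numpy 2.4.6, scipy 1.17.1, pandas 2.3.3 and matplotlib 3.10.9.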

Additional observations from a re-analysis of the deposited data

How the results depend on the processing

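The ratio of the B cell shares stayed within its counting interval under all 8 alternatives. Not all of them could move it much. Leaving out the 10% of members with the most UMIs takes nearly the same fraction from each library, and only 2 control and 6 treated members had over 20000 UMIs. Without members with any UMI of another lineage, 47 genes were at least 1.5-fold higher, and 51 both without the 10% of members with the most UMIs and without members over 20000 UMIs. Thinned to 1000 UMIs per cell, 177 were higher and 488 lower, divided by the median ratio 123 and 191, at a minimum of 100 CPM 36 and 137 (fewer genes tested), and with no minimum 1505 and 2847 (more genes tested). Where no cause is named, the cause was not tested.

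Some ratios and medians near 1 or resting on few barcodes reversed. With at least 3 Cd79a UMIs, which removes the deepest control barcode, the medians of the gate markers and of receptor genes were -0.031 and -0.068, and the ratios of Cd79a, Cd79b, Ms4a1 and Iglc3 were 0.941, 0.981, 0.977 and 0.954. Without the deepest control member alone these were -0.039, -0.062, 0.933, 0.975, 0.972 and 0.958. Without members over 20000 UMIs the receptor median was -0.024, Cd79a, Ms4a1 and Iglc3 were 0.959, 0.995 and 0.984 and Ccl4 was 0.833. Without the 10% of members with the most UMIs, with each cell scaled alike and thinned, the marginal zone median was -0.083, -0.024 and -0.14, the cytotoxic median -1.96, -0.47 and -0.23, and Gzma 0.237, 0.908 and 0.854. Without members with another lineage's UMI, the cytotoxic and erythroid medians were -2.86 and 4.45, Gzma 0.112, Ccl4 0.922, Cxcl10 0.362, Ms4a1 0.969 and Iglc3 0.972. Ccl4 was 0.685 without the 10% of members with the most UMIs and 0.872 with each cell scaled alike. Thinned, Cd79a was 0.997 and Ms4a1 0.869.

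No paired analysis was possible because each group holds 1 library. Without a replicate library, no difference can be set against the spread between tumours, and 195 control members limit what counting can show for genes near 50 CPM.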

Other observations

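Some genes on no list also lay past 1.5-fold. Crem and Sik1 were under the minimum mean of 50 CPM in the summed comparison and reached it without members over 20000 UMIs. Crem, a cAMP-response factor gene, stood at 75.9 and 21.3 CPM (0.281, 0.191 to 0.409), with a UMI in 51 of 195 control and 40 of 489 treated members. Sik1, a kinase gene that is itself cAMP-induced, stood at 68.5 and 28.3 CPM (0.413, 0.288 to 0.591). The linker histone gene Hist1h1c stood at 337 and 136 CPM (0.404, 0.344 to 0.473) and Vps37b, an endosomal sorting gene, at 166 and 70.9 CPM (0.426, 0.340 to 0.533). In Cd3-positive barcodes the ratios of these 4 genes were 0.810, 1.00, 0.707 and 0.976. Among higher genes, Zkscan3, which encodes a repressor of autophagy and lysosome genes, stood at 37.9 and 76.5 CPM (2.02, 1.40 to 2.97), with a UMI in 28 control and 141 treated members and a ratio of 1.08 in Cd3-positive barcodes. Pld4, an endolysosomal nuclease gene, stood at 40.0 and 84.4 CPM (2.11, 1.48 to 3.07), with a ratio of 1.74 there.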
